A study of Mus musculus with 35 samples.

Results

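The peaks described here are the regions enriched for dimethylated lysine 4 of histone H3 (H3K4me2) in mouse pre-B cells, 38775 from a WT library and 39098 from an IKDN library. They are all the H3K4me2 peaks the submitters listed on chromosomes 1 to 19 and X, 77873 of the 1211551 peaks in 33 lists of the series. A WT peak was called shared when at least 1 bp of it lay in an IKDN peak, and WT-only otherwise. IKDN peaks were classed the same way against the WT list.

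The series is a set of chromatin immunoprecipitation and sequencing (ChIP-seq) libraries from pre-B cells, B-lymphocyte precursors grown attached to a stromal layer and taken at passages 3 to 8. The WT cells came from WT mice. The IKDN cells came from mice with the IKDN allele and a CD2 Cre transgene, whose recombinase is active in lymphoid cells. IKDN is a dominant-negative form of Ikaros, the zinc-finger transcription factor encoded by Ikzf1 that lymphocyte development depends on. The label of the WT cells names no Cre. Both libraries were made with the same H3K4me2 antibody. How many mice or cultures each library holds, and whether stromal cells were removed, is not given in the sources used here. Each genotype has 1 H3K4me2 library, so no difference below has a replicate check or a p-value. Intervals printed beside a share are exact Clopper-Pearson 95% intervals that cover counting error only.

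H3K4me2 is written by the KMT2 (MLL) family of methyltransferases and removed by LSD1. It lies at active promoters, beside the trimethylated form (H3K4me3), and at enhancers, beside the monomethylated form (H3K4me1) and acetylated lysine 27 (H3K27ac). At developmental genes it can also lie at CpG-rich promoters with trimethylated lysine 27 (H3K27me3), the mark of Polycomb repression. In lymphoid cells it covers lineage enhancers and the antigen receptor segments that are open to recombination.

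The sequences that follow are the 250 bases before the start sites of 6 genes, shown as examples of promoters under the highest-scored peaks of each class. CpG content varies widely within a class and these 6 do not represent it. Other promoters picked by the same rule held 39 (3110070M22Rik, WT only), 24 (Stc2, WT only), 10 (Gas6, IKDN only) and 7 CG (Gm13288, IKDN only). The sequences were read from RefSeq promoter windows of build GRCm38.p6, run 5′ to 3′ on the strand of the gene, and carry CG in capitals.
Lpcat2 (H3K4me2 in WT only, chr8:92855083-92855332, plus strand): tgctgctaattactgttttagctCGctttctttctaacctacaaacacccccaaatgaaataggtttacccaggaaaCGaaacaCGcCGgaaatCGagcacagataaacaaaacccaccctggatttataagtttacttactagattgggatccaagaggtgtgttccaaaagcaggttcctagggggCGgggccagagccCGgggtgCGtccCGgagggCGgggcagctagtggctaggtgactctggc
Ptpn14 (H3K4me2 in IKDN only, chr1:189728018-189728267, plus strand): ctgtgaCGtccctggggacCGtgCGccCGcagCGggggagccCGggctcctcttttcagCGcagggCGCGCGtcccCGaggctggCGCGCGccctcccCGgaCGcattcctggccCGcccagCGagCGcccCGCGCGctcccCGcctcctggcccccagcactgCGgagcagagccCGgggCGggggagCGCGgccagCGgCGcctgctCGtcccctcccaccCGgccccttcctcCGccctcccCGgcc
Hlf (H3K4me2 in IKDN only, chr11:90390918-90391167, minus strand): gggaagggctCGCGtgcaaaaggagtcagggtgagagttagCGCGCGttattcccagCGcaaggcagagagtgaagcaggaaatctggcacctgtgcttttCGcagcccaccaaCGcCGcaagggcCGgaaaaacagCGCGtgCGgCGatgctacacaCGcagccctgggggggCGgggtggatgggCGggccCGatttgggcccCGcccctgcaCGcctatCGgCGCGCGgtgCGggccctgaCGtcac
Lrig1 (H3K4me2 in IKDN only, chr6:94700146-94700395, minus strand): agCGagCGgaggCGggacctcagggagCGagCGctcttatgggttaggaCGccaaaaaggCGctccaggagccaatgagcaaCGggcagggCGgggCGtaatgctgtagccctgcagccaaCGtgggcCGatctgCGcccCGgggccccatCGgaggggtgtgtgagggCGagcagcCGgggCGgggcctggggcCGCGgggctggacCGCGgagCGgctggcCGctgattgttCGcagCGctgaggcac
Mef2d (H3K4me2 in both, chr3:88142122-88142371, plus strand): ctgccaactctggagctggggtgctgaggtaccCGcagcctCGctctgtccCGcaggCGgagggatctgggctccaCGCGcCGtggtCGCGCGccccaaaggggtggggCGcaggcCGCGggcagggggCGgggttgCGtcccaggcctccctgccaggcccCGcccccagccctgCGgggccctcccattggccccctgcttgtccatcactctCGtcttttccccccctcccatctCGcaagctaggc
Igll1 (H3K4me2 in both, chr16:16863986-16864235, minus strand): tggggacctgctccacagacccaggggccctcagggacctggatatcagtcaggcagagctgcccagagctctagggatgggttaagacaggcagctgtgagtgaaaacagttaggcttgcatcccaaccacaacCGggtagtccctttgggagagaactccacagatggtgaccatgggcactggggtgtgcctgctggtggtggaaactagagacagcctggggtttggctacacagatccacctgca
The stretch before Lpcat2, a gene for a lysophospholipid acyltransferase, holds 10 CG. Those before Ptpn14, a phosphatase gene that restrains YAP, and Hlf, a transcription factor gene of haematopoietic stem cells, hold 34 and 26. The stretch before Lrig1, which codes for a negative regulator of epidermal growth factor receptors, also holds 26. Among the shared promoters, Mef2d, a MEF2 transcription factor gene, holds 19 and Igll1, which codes for the surrogate light chain protein lambda 5, holds 1.

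The pre-B label was checked against the H3K4me2 coverage of 5 defining genes. Coverage is the summed width of the peaks that carry a gene's name, in kb, and is compared between libraries, not between genes. Cd79b, a signalling chain of the B cell receptor, was covered over 21.6 kb (WT) and 18.2 kb (IKDN). Igll1 had 19.4 and 18.2 kb, and Rag1, a recombinase gene, had 7.00 and 5.22 kb. No peak carries the names Cd79a or Vpreb1, and counted within 10 kb of their gene bodies they had 20.01 and 14.7 kb, and 15.5 and 15.4 kb. All 5 genes were thus covered in both libraries, and none was called different by the rule given with the genes below.

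The lists were close in size: peaks covered 88.7 Mb in WT and 88.6 Mb in IKDN, with median widths of 1757 and 1790 bp. The peak score, the submitters' own value, ran from 4.35 to 2769.9 in WT and from 4.72 to 2605.1 in IKDN. What the score counts is not stated, so it is used here only as a rank within a list. The narrowest peaks, 500 bp wide, made up 9.76% of the WT list and 10.7% of the IKDN list.

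Of the WT peaks, 9430 (24.3%, interval 23.9 to 24.75%) had no IKDN partner, and of the IKDN peaks 9605 (24.6%, 24.14 to 25%) had no WT partner. The ratio of IKDN-only to WT-only peaks was 1.02. The same ratio was 1.12 for H3K4me1, 1.46 for H3K27ac, 2.67 for H3K36me3, a mark of transcribed gene bodies, 1.04 for H3K27me3 and 0.669 for H3K4me3. The label of the IKDN H3K4me3 library lists the antibody catalogue number of the H3K4me1 libraries, which bears on every IKDN H3K4me3 value given here. By number, H3K4me2 thus had the ratio nearest to 1 of these 6 marks. By chromosome the ratio ran from 0.735 on chromosome 12, with 0.7365 on X, to 1.32 on chromosome 8.

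Genotype-only peaks were narrow and low in score. Their median width was 820 bp in WT and 900 bp in IKDN, against 2258 and 2208 bp for the shared peaks of each list. They therefore held a smaller share of the covered length than of the peaks, 11.1% in WT and 12.8% in IKDN. In the lowest decile of scores, 68.2% of WT peaks and 64.0% of IKDN peaks had no partner. In the highest decile these shares were 0.155% and 1.07%, or 6 WT and 42 IKDN peaks. The lists crossed between these ends: the unmatched share was larger in WT among the weakest peaks and larger in IKDN among the strongest. Width gave the same picture, with 34 WT-only and 71 IKDN-only peaks over 5000 bp.

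**Figure D1:**
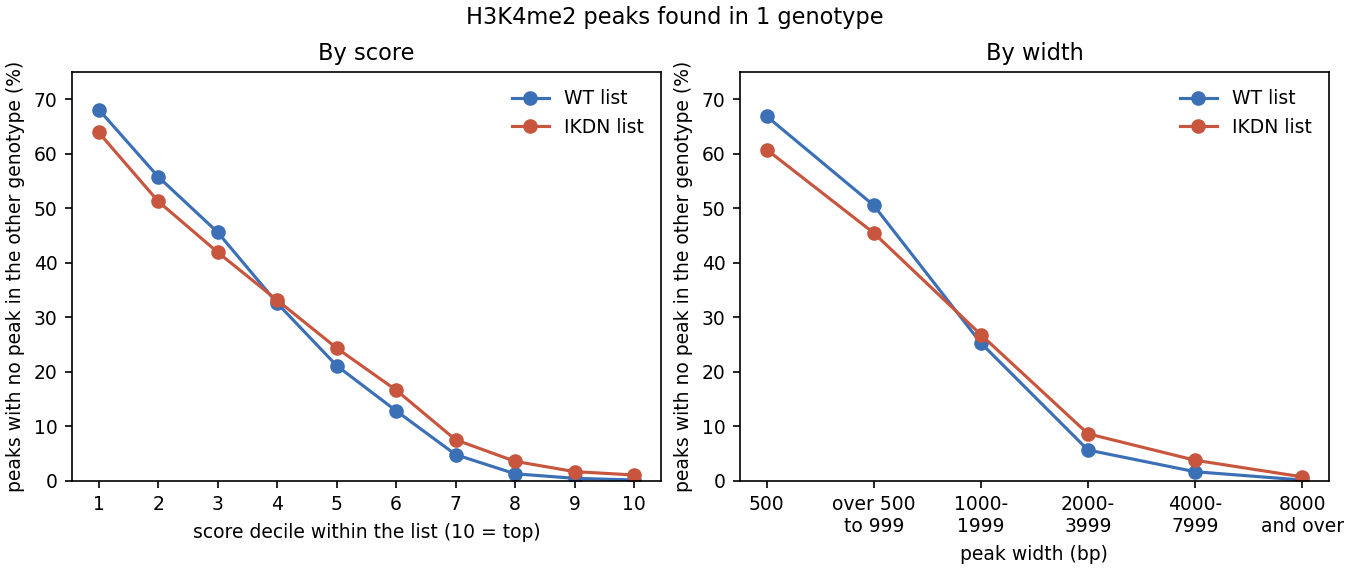
Percentage of H3K4me2 peaks with no overlapping peak in the other genotype (vertical axis), by score decile within each list (left) and by peak width in bp (right), for WT (blue) and IKDN (red). Both lines fall from over 60% at the weakest and narrowest peaks to 0.155% in WT and 1.07% in IKDN at the top decile of scores.

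Most shared peaks had similar ranks in both lists. Among 27310 peaks that had exactly 1 partner each way, Spearman's correlation between the WT and IKDN score ranks was 0.855, and between widths 0.807, given as descriptions over peaks, which are not independent. The IKDN peak was wider by at least 1000 bp and 1.5 times in 1610 pairs (5.90%) and the WT peak in 1675 (6.13%). The median move in score percentile, in either direction, was 6.08 points. A rise of at least 50 points was seen in 214 pairs and a fall of that size in 117.

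The pairs with the largest moves were picked after their values were seen. The peak at the promoter of Kcnip3, which codes for a calcium-binding protein of neurons, was 500 bp wide at percentile 3.74 in WT and 8334 bp at percentile 96.8 in IKDN. The promoter peak of Igf2, the gene of insulin-like growth factor 2, went from 636 to 7286 bp and from percentile 5.51 to 91.3. The Lnx2 peak, in a gene for a ubiquitin ligase that binds Numb, went from 1991 to 19086 bp. The Kcnip3 and Igf2 peaks were thus weak in WT, while the Lnx2 peak stood at percentile 64.2 there. In the other direction, a peak named for Thbs4, a thrombospondin gene, went from 8376 bp at percentile 77.4 to 500 bp at percentile 0.151. A peak in Tox, a gene of lymphocyte development, went from 4470 to 500 bp, and one in Ptprj, the gene of the phosphatase CD148, from 8938 to 1662 bp. A peak named for Bmpr1a, a BMP receptor gene, went from 7364 to 1116 bp. A peak that counts as shared can thus still differ widely in extent between the libraries.

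Where the peaks lie differed between the classes. The deposited annotation put 12.8% of the shared WT peaks at a promoter (3743 peaks, interval 12.4 to 13.1%), 4.45% of the IKDN-only peaks (427, 4.04 to 4.88%) and 1.74% of the WT-only peaks (164, 1.49 to 2.02%). The intervals of the 3 classes did not overlap, and the IKDN-only class lay between the other two. Intergenic shares were 33.7% of shared, 46.5% of IKDN-only and 52.7% of WT-only peaks, and intron shares were 44.0, 42.7 and 41.3%. A peak over 2500 bp from the nearest start site is called distal below, and proximal otherwise. By that measure 94.7% of WT-only and 88.1% of IKDN-only peaks were distal, against 59.8% of shared WT peaks.

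The element at the peak centre went the same way. CpG islands held the centres of 239 IKDN-only peaks (2.49%) and 39 WT-only peaks (0.414%), and of 7.27% of shared peaks. L1 elements, the LINE retrotransposons, held the centres of 797 WT-only peaks (8.45%), 354 IKDN-only peaks (3.69%) and 2.41% of shared peaks. LTR elements, from endogenous retroviruses, held 8.44, 5.93 and 4.23%. The WT-only peaks over L1 elements were weak, with a median score of 11.2 and a median width of 756 bp.

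**Figure D2:**
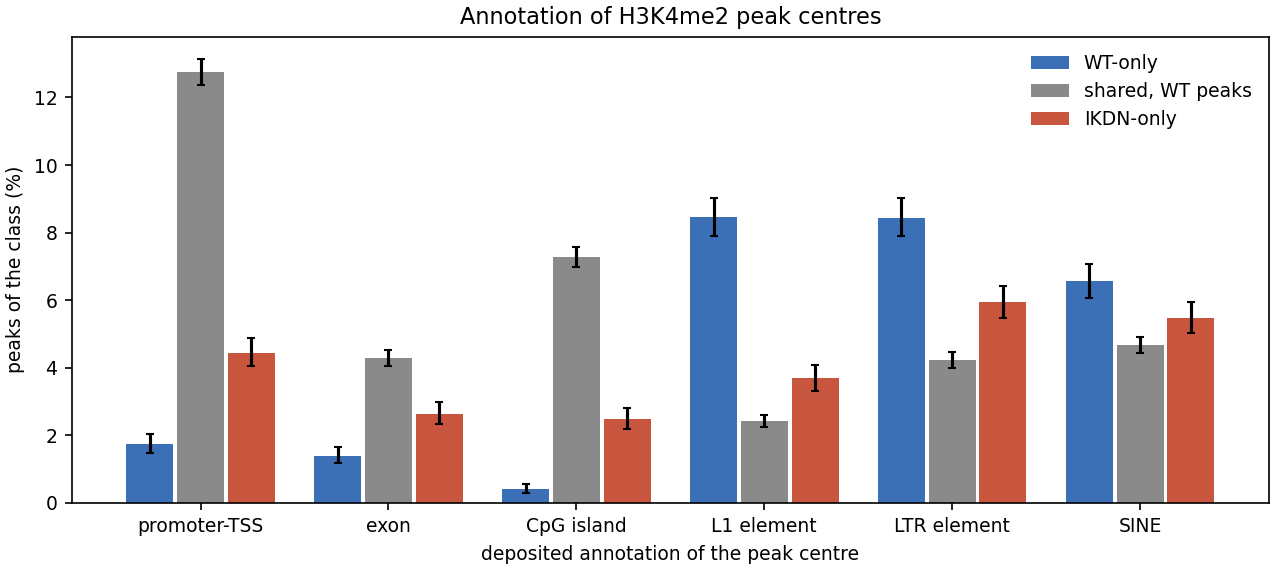
Percentage of H3K4me2 peaks of each class (vertical axis) whose centre carries each deposited annotation (horizontal axis), with exact 95% intervals for counting error, for WT-only (blue), shared (grey) and IKDN-only (red) peaks. Promoter shares run from 1.74% of WT-only over 4.45% of IKDN-only to 12.8% of shared peaks, and L1 shares run the other way, from 8.45% of WT-only peaks to 2.41% of shared peaks.

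Distal genotype-only H3K4me2 peaks carried the other enhancer marks mainly in the library of the same genotype. Of 8929 distal WT-only peaks, 75.2% overlapped an H3K4me1 peak in WT and 33.0% in IKDN. H3K27ac peaks lay on 43.9% of them in WT and 11.4% in IKDN. RNA polymerase II (RNAPII) lay on 17.4 and 7.45%. With neither H3K4me1 nor H3K27ac there were 21.8% in WT and 64.0% in IKDN. These WT sites thus held less of each of the 3 active readouts in IKDN. The Polycomb mark H3K27me3 lay on 5.43 and 7.04%.

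The 8458 distal IKDN-only peaks gave the mirror image. H3K4me1 lay on 22.1% of them in WT and 78.7% in IKDN, H3K27ac on 9.34 and 50.4%, and RNAPII on 9.47 and 20.4%. In WT, 74.5% of these sites had neither H3K4me1 nor H3K27ac, against 18.1% in IKDN. H3K27me3 lay on 13.2% in WT and 9.26% in IKDN. MED1, a subunit of the Mediator complex, lay on 0.674% in WT and 20.4% in IKDN. The MED1 lists differ in size, with 12062 WT and 24201 IKDN peaks, and MED1 also lay on more of the shared distal peaks in IKDN, 44.6% against 14.9%. The list size thus moves with this result, and its part was not tested. Shared distal peaks had near-equal H3K4me1, 82.9 and 84.4%, and H3K27ac, 67.4 and 68.8%.

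**Figure D3:**
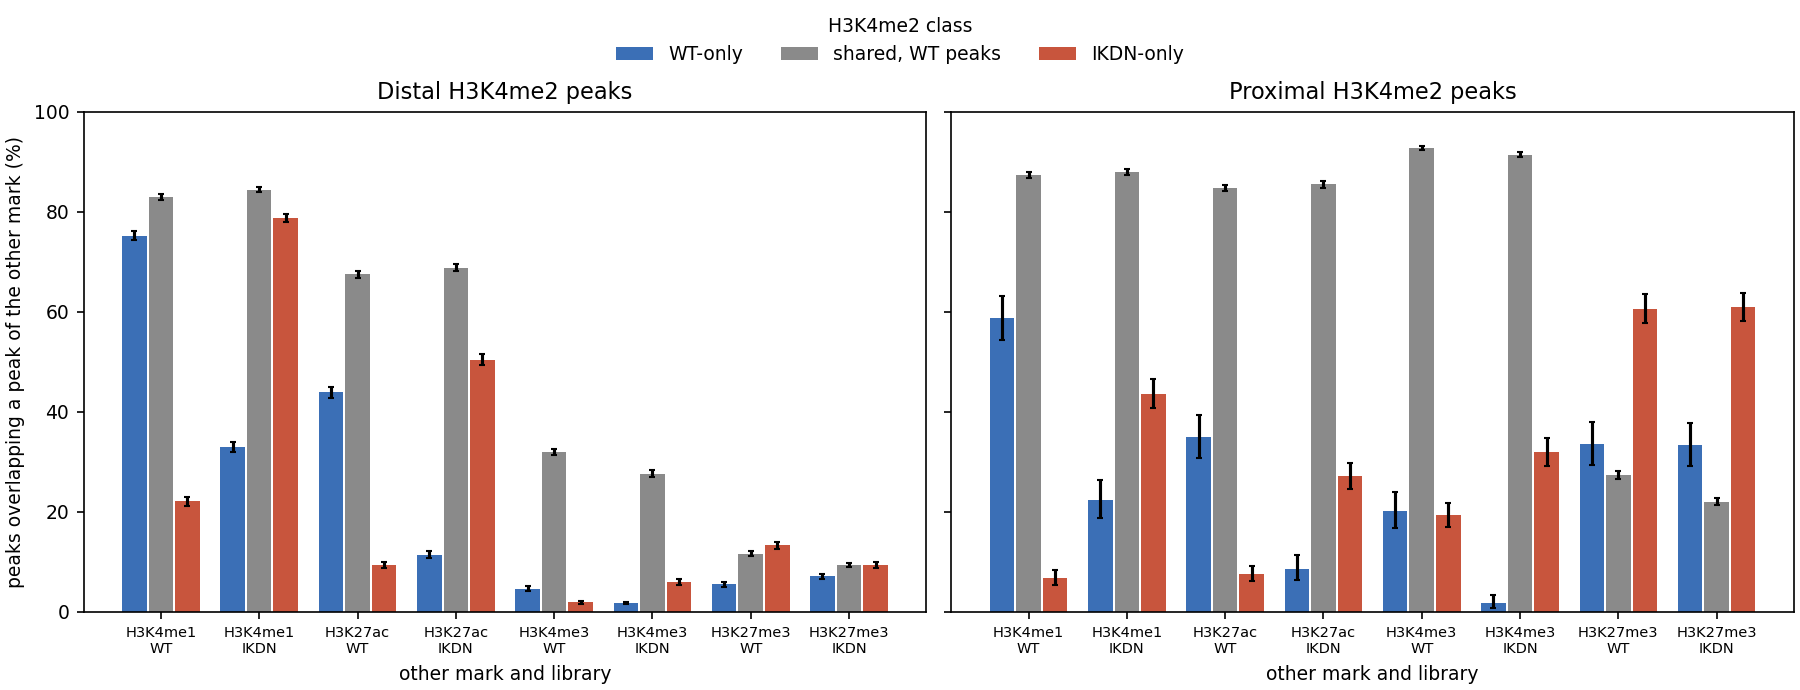
Percentage of H3K4me2 peaks that overlap a peak of another mark by at least 1 bp (vertical axis), by mark and library (horizontal axis), for distal (left) and proximal (right) peaks of the WT-only (blue), shared (grey) and IKDN-only (red) classes, with exact 95% intervals for counting error. At distal peaks, H3K4me1 follows the genotype of the class (75.2 against 33.0% for WT-only, 22.1 against 78.7% for IKDN-only), and at proximal IKDN-only peaks H3K27me3 is near 61% in both libraries.

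Transcription factor peaks also split by class. Ikaros, mapped in WT, lay on 66.3% of shared distal H3K4me2 peaks, 39.0% of WT-only and 12.3% of IKDN-only peaks. In IKDN cells TEAD1, the DNA-binding partner of YAP, lay on 54.3% of shared, 40.6% of IKDN-only and 11.2% of WT-only peaks. LHX2, a LIM-homeodomain factor, lay on 48.1, 30.0 and 9.93%, and LMO2, a haematopoietic bridging factor, on 37.8, 22.5 and 5.57%. In these 4 libraries the shared sites ranked first, and the sites of the library's own genotype ranked above those of the other. TEAD1 in WT lay on 25.5% of shared, 9.06% of WT-only and 7.73% of IKDN-only peaks. The TEAD1 lists held 33450 WT and 47671 IKDN peaks, and the part of list size was not tested. Within the central 500 bp the order held for the 4 libraries, but the lead of the shared peaks, which are wider, was smaller. TEAD1 in IKDN lay there on 34.4% of shared and 32.0% of IKDN-only peaks, so its lead almost closed. LHX2 lay on 29.6 and 21.9% and LMO2 on 23.6 and 17.3%. Ikaros lay on 44.8% of shared and 32.6% of WT-only peaks.

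B-lineage factors were found at IKDN-only sites in IKDN cells as well. EBF1, a B cell specification factor, lay on 16.1% of WT-only and 10.8% of IKDN-only peaks in WT, and on 11.2 and 30.3% in IKDN. IRF4, a pre-B cell factor, lay on 13.5 and 2.65% in WT and on 9.96 and 28.1% in IKDN. PAX5, the B cell commitment factor, lay on 37.8 and 18.5% in WT and, over the 18 chromosomes that its IKDN list covers, on 25.4 and 57.6% in IKDN. ETS1 lay on 11.2 and 2.89% in WT, over 19 chromosomes, and on 7.74 and 33.9% in IKDN. E2A, the product of Tcf3, lay on 20.9 and 3.72% in WT, over 11 chromosomes, and on 4.49 and 17.9% in IKDN. Each of the 5 factors, in each genotype, lay on a larger share of the H3K4me2 peaks found in that genotype only than of those found in the other genotype only. The IKDN lists were longer for IRF4 (17942 WT and 29546 IKDN peaks), ETS1 (22423 and 35438) and EBF1 (25585 and 33367). At shared distal peaks the share also rose from WT to IKDN for IRF4 (29.9 to 49.7%) and ETS1 (34.6 to 54.6%). It rose less for PAX5 (62.8 to 73.1%) and EBF1 (30.8 to 35.3%), and was lower for E2A (37.6 to 33.2%). The WT E2A, WT ETS1 and IKDN PAX5 shares are again over 11, 19 and 18 chromosomes. For these 3 factors the shared peaks compared are thus not the same set. The part of list size in the rises was not tested. Shared peaks are wider, which raises a 1 bp overlap. Within the central 500 bp of each peak, EBF1 in IKDN lay on 23.5% of IKDN-only and 20.3% of shared WT peaks, against 30.3 and 35.3% over whole peaks, so its order turned.

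Proximal IKDN-only peaks differed from the distal ones. Of the 1147, H3K27me3 peaks lay on 60.6% in WT and 60.9% in IKDN, and 608 (53.0%) overlapped H3K27me3 in both genotypes. At 87 of them H3K27me3 was present in WT only, at 91 in IKDN only and at 361 in neither library. H3K4me1 lay on 6.71% in WT and 43.6% in IKDN, H3K27ac on 7.50 and 27.03%, and H3K4me3 on 19.3 and 31.9%. Proximal IKDN-only peaks thus carried the Polycomb mark in both libraries at 53.0%. In IKDN, 52.2% of them had neither H3K4me1 nor H3K27ac. H3K27me3 lay on 27.4 and 22.0% of the shared proximal peaks.

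The 501 proximal WT-only peaks had H3K27me3 on 33.5% in WT and 33.3% in IKDN, with 135 in both. H3K4me1 lay on 58.7 and 22.4%, H3K27ac on 34.9 and 8.58%, and H3K4me3 on 20.2 and 1.796%. Their overlap with the active marks was thus lower in IKDN for all 3, and the H3K27me3 share was almost the same in both.

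RefSeq promoter windows, 250 bases before to 50 after each start site, gave a view that does not depend on peak centres. Of 32619 windows, 13902 (42.6%) overlapped H3K4me2 in both libraries, 1308 in IKDN only (4.01%) and 490 in WT only (1.5%). The median number of CG dinucleotides was 21 in windows covered in both, 11 in IKDN-only, 5 in WT-only and 3 in uncovered windows. At least 10 CG were present in 55.4% of IKDN-only and 22.9% of WT-only windows. H3K27me3 lay on 53.3% of the IKDN-only windows in WT and 55.6% in IKDN, and on 28.8 and 30.4% of the WT-only windows. H3K4me3 lay on 17.7 and 33.4% of IKDN-only windows, and on 23.1 and 3.47% of WT-only windows. The IKDN-only windows were thus richer than the WT-only windows in CG and in H3K27me3.

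Short motifs were counted on both strands of these windows as a description of the letters, not of binding. The RUNX motif TGTGGT was in 24.9% of WT-only, 13.8% of IKDN-only and 16.6% of all windows, and in 20.4% of uncovered windows. The ETS motif with a CG, CCGGAA, was in 6.33 and 9.94%, against 27.8% of windows covered in both and 15% of all. The GATA motif AGATAA was in 14.3 and 7.95%, with 11.2% of all windows and 15.9% of uncovered windows. The Ikaros motif TGGGAA was in 27.1 and 27.4%, and in 25.4% of all. The TEAD motif GGAATG was in 12.2 and 15.9%, and in 14.6% of all, and it shares letters with one of the searched ETS motifs (AGGAAG). The searched motif with a CG was most frequent in the CG-rich windows covered in both libraries, while the Ikaros motif had almost the same share in WT-only and IKDN-only windows.

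Genes were compared by covered length. A gene was called higher in IKDN when its coverage was at least 1000 bp longer and at least 1.5 times that of WT, and lower for the reverse. This is a threshold on 1 library a side, not a test. Of 16932 genes with an H3K4me2 peak, 2548 were higher (15%) and 2187 lower (12.9%), with a median difference of -91 bp. A peak was present in IKDN only at 1412 genes and in WT only at 929. Of the genes higher for H3K4me2, 68.8% were higher for H3K4me1 (21% of all genes), 57.8% for H3K27ac (18.7%) and 34.4% for RNAPII (22.1%). Of the genes lower for H3K4me2, 61.5% were lower for H3K4me1 (17.6% of all genes), 56.5% for H3K27ac (14.5%) and 34.9% for RNAPII (19.8%). For H3K4me3, 14.5% of the higher genes were higher (3.83% of all) and 21.3% of the lower genes lower (8.5%). For H3K36me3 these shares were 25.9% (21.1%) and 10.2% (6.75%), and for MED1 41.1% (33%) and 5.396% (1.62%). H3K27me3 showed no single direction at the genes higher for H3K4me2, of which 28.3% were higher (17.5% of all) and 27.5% lower (23.3%).

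The 5 largest gains were at Trio, Kcnma1, Atp8a2, Mir6368 and Lnx2. Trio, which codes for a guanine nucleotide exchange factor of small GTPases, went from 7 peaks and 10.4 kb to 24 peaks and 60.2 kb. Kcnma1, a calcium-activated potassium channel gene, went from 12.2 to 48.9 kb, and Atp8a2, a phospholipid flippase gene, from 7.64 to 43.4 kb. Lnx2 had 4 peaks in both libraries and went from 9.99 to 42.0 kb. Of its 4 IKDN peaks 1 was IKDN-only, so the gain joined that peak with wider shared ones. Coverage for the microRNA gene Mir6368 went from 29.0 to 62.2 kb.

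The 5 largest losses carried the names Rprl1, Rpia, 4930515G16Rik, A430107P09Rik and Olfr1507, and all lay in or beside antigen receptor V regions. Peaks named for Rprl1, an RNase P RNA-like gene, went from 89 with 139 kb to 15 with 21.7 kb on chromosome 6. Peaks named for 4930515G16Rik went from 89.5 to 13.5 kb and those for Rpia, a pentose phosphate enzyme gene, from 95.1 to 22.3 kb, also on chromosome 6. On chromosome 14, peaks named for A430107P09Rik went from 86.3 to 26.7 kb and those for the olfactory receptor gene Olfr1507 from 48.7 to 12.6 kb. The names are those of the nearest annotated start site, since V segments carry none in the deposited annotation.

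Over the V segments of the Igk light chain locus, chr6:67555636-70704177, WT had 175 H3K4me2 peaks covering 293 kb and IKDN had 28 covering 41.7 kb. Of 162 V segments, 87 overlapped a peak in WT and 12 in IKDN, and 149 of the WT peaks had no partner. H3K4me1 went from 493 to 88.6 kb, H3K27ac from 349 to 37.9 kb and RNAPII from 108 to 14.5 kb, while H3K27me3 went from 38.8 to 297 kb. PAX5 peaks in the span numbered 251 in WT and 140 in IKDN, and Ikaros peaks 216 in WT. The V segments, which recombine to build the light chain when pre-B cells differentiate, thus held less of each active mark and more H3K27me3 in the IKDN library.

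The Igh V region, chr12:113572929-116009954, differed less in H3K4me2, going from 108 peaks and 168 kb to 72 peaks and 122 kb, with 53 and 28 of 183 V segments covered. Its H3K27ac went from 312 to 99.1 kb. The T cell receptor alpha and delta V region, chr14:52427967-53977678, went from 75 peaks and 137 kb to 30 peaks and 40.5 kb, with 56 and 24 of 130 segments covered. H3K27me3 there went the other way from Igk, from 207 to 134 kb, and over the Igh V region it went from 144 to 177 kb. Peak numbers went from 13 to 3 at Igl, from 16 to 11 at Trb and from 13 to 11 at Trg. IKDN had fewer H3K4me2 peaks than WT over the V segments of all 6 loci. Without these V regions the WT-only share was 23.9%.

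Named gene lists are given next by role, with genes that have an H3K4me2 peak as the denominator. A peak carries the name of the nearest start site, so a gene listed with no peak may hold peaks named for a neighbour. Counted instead over the gene body and 10 kb flanks, the calls of Cdkn1a, Chd4, Cldn1, Crim1, Cxcl12, Cxcr4, Esrp1, Hdac1, Itga5, Itga6, Itgb3, Lats1, Men1, Postn, Sdha, Spib, Tcf3, Tead2, Tgfbr1, Tlr4 and Vcl were lost, and that of Lat reversed. Among B lineage identity genes, 0 of 26 were higher and 8 lower, against 12.9% of all genes lower, with a median difference of -2062.5 bp. By number of peaks the direction turned, with 4 higher and 2 lower. Bank1, an adaptor gene downstream of the B cell receptor, went from 31.1 to 14.9 kb. Blk, a Src-family kinase gene, went from 15.5 kb to no peak, and Pou2af1, the gene of the B cell coactivator OCA-B, from 25.9 to 13.6 kb. The other 5 lower genes were Spib, Cd74, Tcf3, Faim3 and Ms4a1. In the pre-B differentiation and signalling list 2 of 24 were higher (8.33%) and 6 lower (25%), against 15% and 12.9% of all genes. The median difference in this list was -1954.5 bp. Cxcr4, the chemokine receptor that holds B precursors at CXCL12-producing stroma, went from 60.7 to 31.1 kb, Dntt, which codes for terminal transferase, from 30.8 to 13.0 kb, and Il2ra, the CD25 gene of small pre-B cells, from 24.5 to 11.01 kb. Its higher members were Rasgrp3, a Ras activator gene (9.60 to 18.5 kb), and Tlr4, the endotoxin receptor gene (15.9 to 24.6 kb).

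The genes of the mapped factors had 0 of 12 higher and 1 lower (8.33%), against 15% and 12.9% of all genes. Over distal peaks only, 0 of 10 were higher and 4 lower, and in the top-scored 50% of each list 1 of 12 was higher and 3 lower. Tcf3 was the lower one, from 13.3 to 8.68 kb. Ikzf1 was covered over 32.3 kb (WT) and 37.2 kb (IKDN), and Ikzf3, the Aiolos gene, had 8.74 and 9.14 kb. The B-lineage factor genes Pax5 and Ebf1 had 22.9 and 20.1 kb, and 24.8 and 17.8 kb, and Irf4 had 42.7 and 31.9 kb. Over the body and flanks Ebf1 did not fall, with 47.65 and 48.83 kb. Pax5 had 30.45 and 22.23 kb there and Irf4 20.12 and 13.47 kb, with none of these called. Tead1 had 29.1 and 36.9 kb, Lhx2 15.9 kb in both, Lmo2 23.9 and 23.6 kb, and Ets1 51.9 and 53.5 kb. The general transcription genes Med1 and Polr2a had 3.06 and 2.59 kb, and 6.99 and 6.71 kb. Tead1, Lhx2 and Lmo2 thus carried H3K4me2 in WT cells too.

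Adhesion genes went the other way. Of 29 integrin and focal adhesion genes, 16 were higher (55.2%) and 1 lower (3.45%), with a median difference of 3948 bp. Over all genes 15% were higher and 12.9% lower. Tns3, a tensin gene of focal adhesions, went from 35.5 to 59.1 kb, Tln2, a talin gene, from none under its name to 12.2 kb (9.36 to 22.4 kb over its body and flanks), and Lasp1, an actin-binding adhesion protein gene, from 4.54 to 15.03 kb. The higher members included 7 integrin genes (Itga1, Itga2, Itga3, Itga5, Itga6, Itgb3 and Itgb5) and the adaptor and kinase genes Vcl, Parva, Fermt2, Ptk2, Tns1 and Bcar1. The lower member was Itga4, the alpha chain of VLA-4, which went from 26.4 to 16.3 kb. Of 25 cytoskeleton and small GTPase genes, 5 were higher (20%) and 2 lower (8%), with a median difference of 2 bp. This list thus lay much nearer to the shares of all genes. Beside Trio, Dock9, a Cdc42 activator gene, went from 13.4 to 34.6 kb and Cald1, the caldesmon gene, from none under its name to 9.19 kb (3.08 to 11.6 kb over its body and flanks), while Diap2, a formin gene, went from 22.7 to 8.76 kb and Myl9, a myosin light chain gene, from 3.92 to 2.39 kb.

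In the Hippo pathway, kinases hold the coactivators YAP and TAZ out of the nucleus, and TEAD factors carry them at target genes. Of 25 genes in this list 12 were higher (48%, against 15% of all genes) and 2 lower (8%, against 12.9%). The median difference was 1970 bp. Upstream, Ptpn14 went from no peak to 24.4 kb, Frmd6, a FERM-domain activator gene, from 10.3 to 22.1 kb, and Wwc1, the Kibra gene, from 0.500 to 8.12 kb (9.40 to 20.96 kb over its body and flanks). Among the effectors Wwtr1, the TAZ gene, had no peak of that name in WT and 2.12 kb in IKDN, and Tead2 and Tead4 were also called higher. Among targets, Crim1, which codes for a BMP-binding membrane protein, went from 11.7 to 24.97 kb, Cyr61 from no peak to 5.63 kb and Ctgf from 0.661 to 4.16 kb, and Ankrd1, Amotl2 and Nuak2 were higher. The kinase genes Stk3 and Lats1 were the lower members, from 18.4 to 10.96 kb and from 4.995 kb to no peak of that name. Over its body and flanks Lats1 had 6.04 and 5.21 kb, which is not called. The members named beyond the 3 largest gains were chosen after their values were seen.

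Stromal fibroblast markers moved with these adhesion and Hippo gains. Of 20 with a peak, 7 were higher (35%, against 15% of all genes) and 1 lower (5%, against 12.9%), with a median of 1111.5 bp. Together the 20 were covered over 59.4 kb in the WT library and 93.7 kb in the IKDN library. Cxcl12, the stromal chemokine gene, went from 12.5 to 21.9 kb, Fn1, the fibronectin gene, from none under its name to 6.13 kb (1.36 to 6.13 kb over its body and flanks), and Twist2 from 0.948 to 6.23 kb. Mmp2, a matrix protease gene, was lower, from 2.48 to 1.26 kb by name and from 9.43 kb to none over its body and flanks. Counted over body and flanks, 5 of 25 markers were higher and 2 lower, Mmp2 and Tagln (2.16 to 1.08 kb). Of the defining collagen genes, Col1a2 and Col3a1 had no peak over the gene body and flanks in either library, as had Col6a1, Dcn, Lum, Timp1 and Vcam1, and Col1a1 had 3.00 and 3.99 kb. The part of stromal chromatin in the adhesion and Hippo results was not tested.

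Growth factor, Wnt, Notch and TGF-beta genes had 8 of 26 higher (30.8%, against 15% of all genes) and 3 lower (11.5%, against 12.9%). Their median difference was 1205.5 bp. By promoter peaks only the direction turned, with 3 of 25 higher and 5 lower. Nrp2, a semaphorin and VEGF receptor gene, went from 1.89 to 15.4 kb, Fzd7, a Wnt receptor gene, from 6.29 to 14.5 kb, and Tgfbr1 from 10.5 to 16.8 kb. The lower ones were the receptor genes Egfr, from 10.2 to 0.500 kb, Bmpr1a, from 7.13 to 3.56 kb, and Igf2r, from 4.14 to 1.97 kb. The cell junction and epithelial list was split, with 5 of 30 higher and 4 lower (median 456 bp), or 4 and 5 over the gene body and flanks. Pard3, a cell polarity gene, went from 3.54 to 21.6 kb, Magi1, a junctional scaffold gene, from 2.45 to 9.997 kb, and Cldn1, a claudin gene of tight junctions, from none to 5.76 kb, of which 0.500 kb lay within its body and flanks. Lower were Cttnbp2, a cortactin-binding protein gene, from 9.14 kb to no peak, Crb1, a polarity gene, from 6.61 to 3.72 kb, and Esrp1, an epithelial splicing factor gene, from 5.99 to 3.67 kb. By share called higher, the junction list lay near the 15% of all genes.

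The start sites of these lists were also compared. Of 21 junction genes with a RefSeq window, H3K4me2 covered those of Cldn1, Dlg5, Dsp, Epcam, Krt18 and Pard3 in IKDN only, 6 genes, and that of Cttnbp2 in WT only. Dsp, the desmoplakin gene, was covered at its start in IKDN only although its summed coverage was lower there, 0.787 against 2.47 kb. Of 19 Hippo genes with a window, Ptpn14, Tead2, Wwc1 and Wwtr1 were covered there in IKDN only, and of 15 stromal markers Acta2, Postn and Twist2. In WT only, H3K4me2 covered Bank1 (of 20 B lineage genes) and Dntt and Il2ra (of 20 pre-B genes). Of 21 growth factor genes it covered Egfr in WT only and Fzd1 in IKDN only, and of 25 progenitor factor genes Hoxa10 and Hlf. Of 23 integrin genes Cav1 was WT-only, and Fermt2 and Itga2 were IKDN-only. In the remaining lists Ly6c1 and Klf1 were WT-only, and Dock1 and Pf4 IKDN-only. Krt18 and Postn had 0.500 kb over the body and flanks in IKDN and none in WT. Over all windows, 4.01% were covered in IKDN only and 1.5% in WT only.

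**Figure D4:**
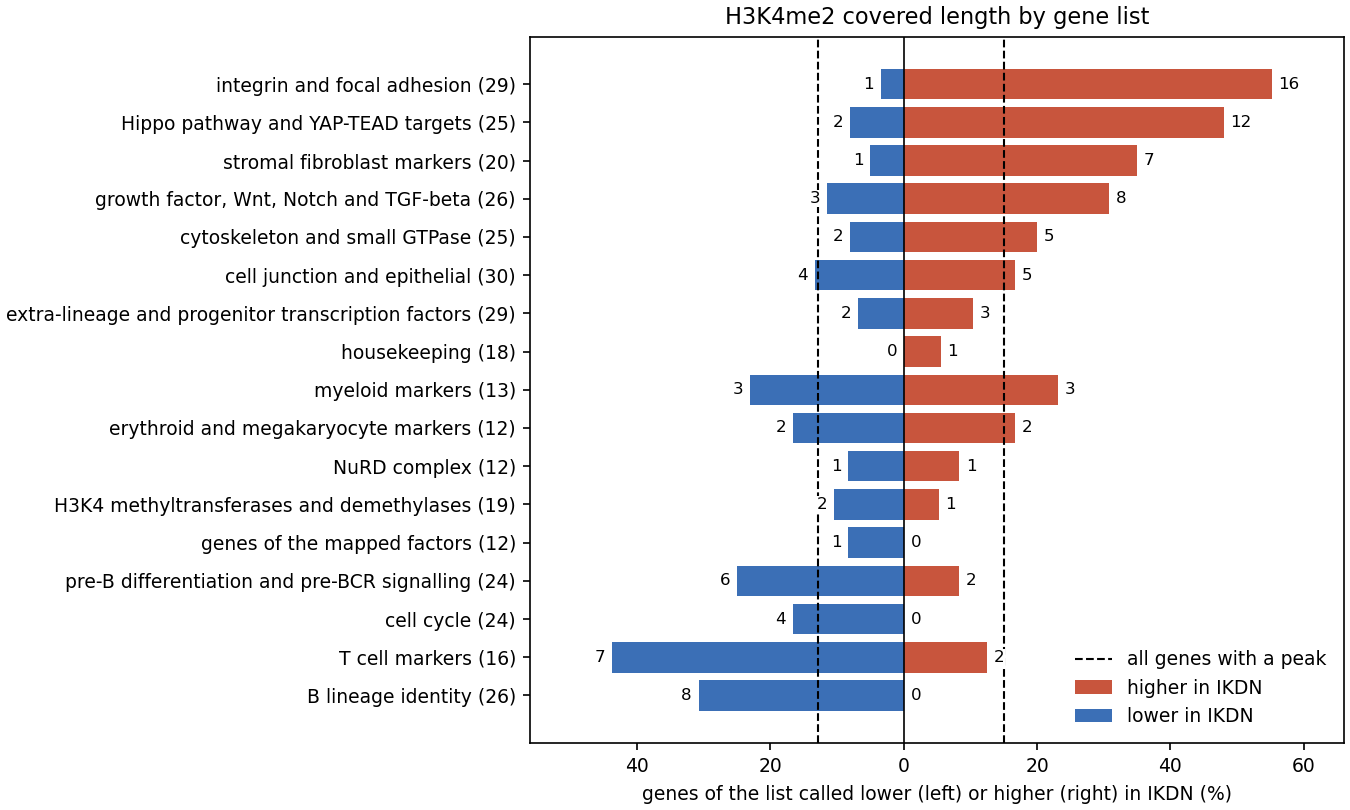
Percentage of the genes of each list (number with an H3K4me2 peak in brackets) called lower (blue, left) or higher (red, right) in IKDN, with the gene counts at the bar ends, the list on the vertical axis and dashed lines at the 12.9% and 15% of all genes. The integrin list (16 of 29) and the Hippo list (12 of 25) reach farthest to the right, and the T cell (7 of 16) and B lineage (8 of 26) lists farthest to the left.

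Of the lists of other lineages, the T cell markers leaned towards lower and the rest were split. Over all genes 15% were higher and 12.9% lower. Extra-lineage and progenitor transcription factor genes had 3 of 29 higher (10.3%) and 2 lower (6.90%), both below those shares (median -83 bp). Hlf went from no peak to 25.8 kb, Cebpa, a myeloid factor gene, from 1.54 to 8.22 kb and Meis1, a stem cell factor gene, from 3.40 to 7.22 kb. The lower ones were Tcf7, the TCF1 gene, from 15.3 to 8.46 kb and Hoxa10 from 2.94 kb to none under its name (9.14 to 1.77 kb over its body and flanks). T cell markers had 2 of 16 higher (12.5%) and 7 lower (43.75%), with a median difference of -933.5 bp. The lower ones included Tcf7 and Cd28, a costimulatory receptor gene (15.4 to 9.72 kb). Cd247, the CD3 zeta gene, was higher, from 7.57 to 13.9 kb, as was Lat, an adaptor gene, with 2.50 kb under its name in IKDN only. Over the body and flanks Lat went the other way, from 12.3 to 6.02 kb, and was called lower. Myeloid markers had 3 of 13 (23.1%) in each direction (median -710 bp). Csf1r, the M-CSF receptor gene, was higher (2.14 to 6.70 kb) and Itgam, the CD11b gene, lower (13.9 to 6.26 kb). Erythroid and megakaryocyte markers had 2 of 12 (16.7%) in each direction (median -226.5 bp), with Pf4, a platelet chemokine gene, higher (0.985 to 3.62 kb).

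Cell cycle genes had 0 of 24 higher and 4 lower (median -249 bp), a share lower of 16.7% against 12.9% of all genes. By promoter peaks only, 2 were higher and 1 lower. Ccnd3, the cyclin D gene of proliferating pre-B cells, went from 44.9 to 28.3 kb, Cdkn2a, a tumour suppressor gene, from 11.7 to 5.21 kb and Cdkn1a, the p21 gene, from 6.54 to 3.22 kb. The genes whose products write and erase H3K4 methylation had 1 of 19 higher (5.26%) and 2 lower (10.5%), with a median difference of -167 bp. Both shares lay below those of all genes, 15% and 12.9%. By number of peaks this list had 3 higher and 0 lower. Smyd3 went from 2.64 to 6.54 kb, Men1, a KMT2 cofactor gene, from 13.5 to 6.70 kb, and Rcor1, the gene of an LSD1 partner, from 7.45 to 4.84 kb. In the NuRD complex, a remodeller that Ikaros binds, Chd4 was higher (3.05 to 5.399 kb) and Hdac1 lower (4.71 to 3.05 kb), of 12 genes (median -415 bp). Of 18 housekeeping genes 1 was called higher and 0 lower (median -350.5 bp). The one was Sdha, with 4.49 kb under its name in IKDN only, but over its body and flanks it had 6.86 and 7.15 kb, which is not called.

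Single peaks were ranked by score within their list. The top WT-only peak, at rank 740, lay over the Lpcat2 promoter (chr8:92851995-92858103, 6108 bp). The second, at rank 908, was also the widest WT-only peak, 10554 bp over the start and first intron of Blk (chr14:63409898-63420452). Others of the first 10 were an intergenic peak of 7463 bp near Igj, the J chain gene, and peaks near the 5′ ends of Sema6d, a semaphorin gene, A430078G23Rik and D630039A03Rik and at the promoter of 3110070M22Rik. The peaks of Lpcat2, Blk, A430078G23Rik and D630039A03Rik overlapped an H3K27me3 peak in IKDN and none in WT. Another 2 of the first 10, named for Txndc11 and Tspan3, were 815 and 625 bp wide over LSU-rRNA repeats in introns of Zc3h7a and Peak1. Those 2 overlapped no H3K4me1, H3K4me3, H3K27ac or H3K27me3 peak in either library. Among the 5 widest WT-only peaks were also those of Pitpnm2 at its promoter (7889 bp), Cacnb2, a calcium channel subunit gene (7884 bp), and Gm8369 (7260 bp).

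The top IKDN-only peak stood higher in its list, at rank 158, and was 15514 bp wide (chr4:142070234-142085748). It carries the name of the noncoding gene Tmem51os1 and lay in the first intron of Tmem51. It overlapped 5 TEAD1, 3 LMO2 and 2 LHX2 peaks in IKDN and no RNAPII, H3K4me1 or H3K27ac peak in WT, where IKDN had 5 RNAPII peaks. The third, of 9119 bp, lay in intron 2 of Lasp1, and the next, of 13422 bp, in intron 2 of Auts2, a neurodevelopmental gene. The rest of the first 10 carried the names Gm13288, Mir143hg, Plrg1, Mpzl1, Ptpn14, Kcnma1 and Lrig1, of which the Plrg1 and Ptpn14 peaks were centred on CpG islands. Hrh1, a histamine receptor gene (9244 bp), and Runx1, a haematopoietic factor gene (8020 bp), were also among the 5 widest. Of the first 10, the peaks of Gm13288, Plrg1, Ptpn14 and Lrig1 overlapped H3K27me3 in WT, and those of Plrg1 and Lrig1 also in IKDN. The Gm13288 peak also overlapped 2 peaks each of H3K4me1, H3K4me3, H3K27ac and RNAPII in WT, so only its H3K4me2 was absent there among these marks.

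The 5 top-scored shared peaks of each list were these. Mef2d, rank 1 in WT and 2 in IKDN, had a peak of 15453 bp in WT and 15197 bp in IKDN. Igll1 and Pax5 were among the first 5 in IKDN, with peaks of 18164 and 17230 bp, beside 6430706D22Rik and Slco4a1, an organic anion transporter gene. In WT the first 5 also held Hist1h2bj, a histone gene (21335 bp), and peaks named for 2610005L07Rik and 6820431F20Rik on chromosome 8. Those pseudogenes are near-identical copies that reads cannot always be assigned between, so their scores are uncertain.

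At 4 loci, chosen after their values were seen, the peaks of 5 marks were laid out by distance from the start site. Around Ptpn14, 13 H3K4me2 peaks covered 28.9 kb in IKDN and none were present in WT. H3K27ac had 23 peaks and 31.5 kb there in IKDN and 1 peak of 0.678 kb in WT, and the single H3K27me3 peak, of 1.29 kb, was in WT. Around Hlf, IKDN had 7 H3K4me2 peaks and 23.4 kb, and H3K27me3 had 10 peaks and 16.5 kb in WT against 1 peak of 0.500 kb in IKDN. Blk was the reverse, with 4 H3K4me2 peaks and 17.3 kb in WT and none in IKDN, and with H3K27me3 over 7.18 kb (WT) and 52.2 kb (IKDN). Bank1 had H3K4me2 in both libraries, 31.1 kb (WT) and 14.9 kb (IKDN), while its H3K27ac went from 24.3 to 5.995 kb and no H3K27me3 peak was present in either library.

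**Figure D5:**
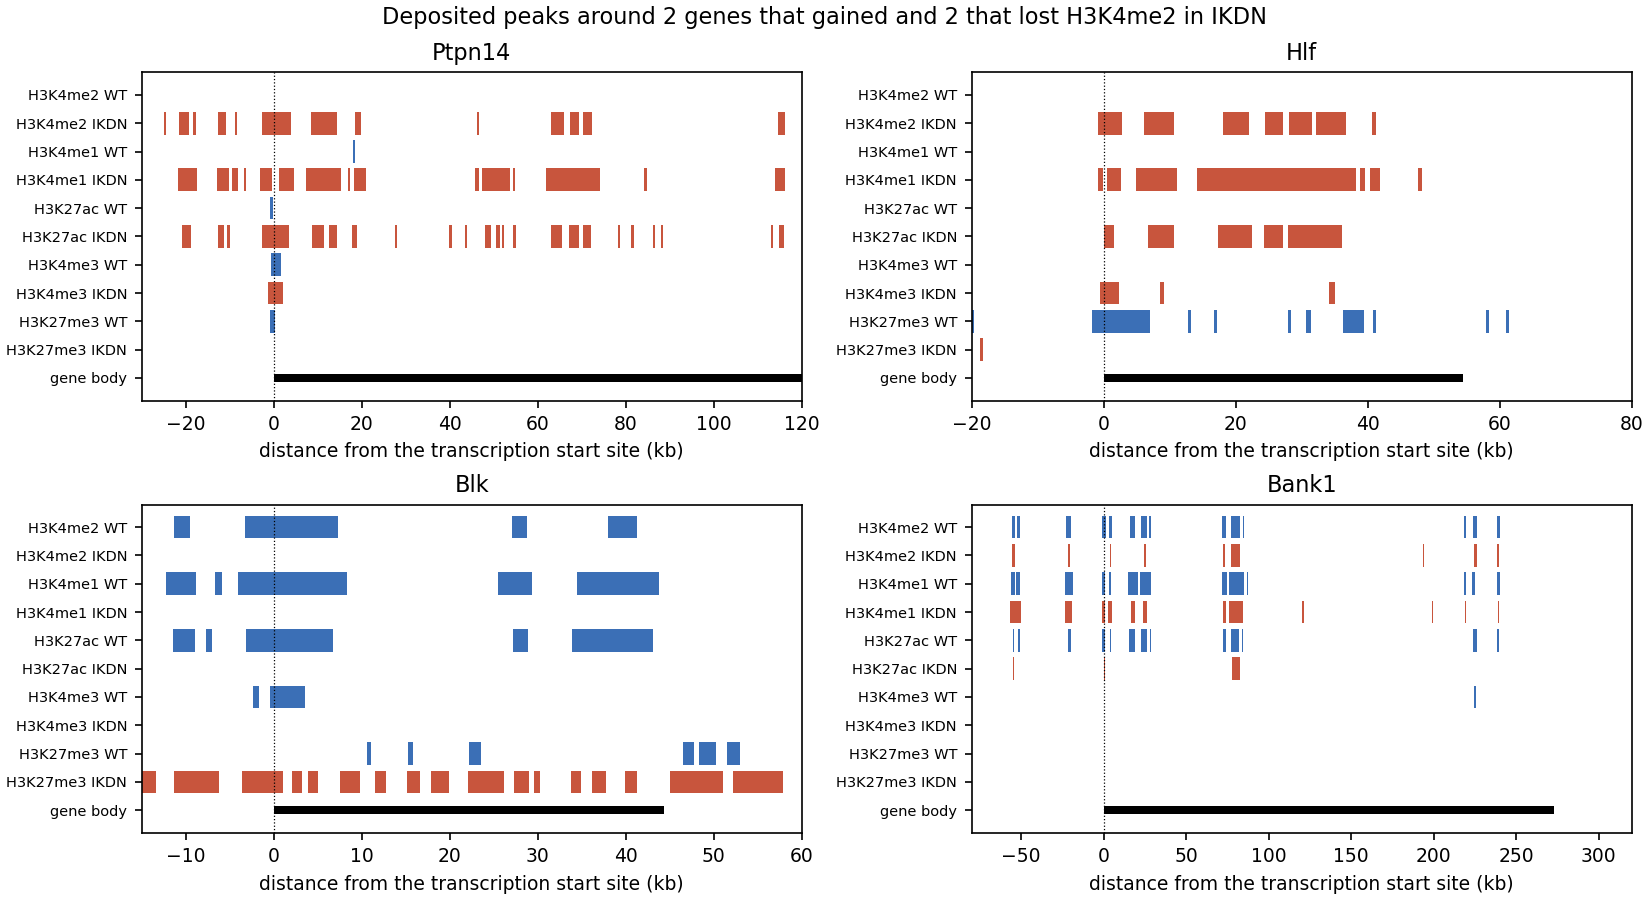
Positions of deposited peaks of 5 histone marks around Ptpn14, Hlf, Blk and Bank1, by distance from the transcription start site in kb (horizontal axis) and by mark and library (vertical axis), with WT peaks in blue, IKDN peaks in red and the gene body in black. H3K4me2 is present in IKDN only around Ptpn14 (28.9 kb) and Hlf (23.4 kb), in WT only around Blk (17.3 kb), and in both around Bank1 (31.1 and 14.9 kb).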

How the data were processed

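Each genotype had 1 H3K4me2 ChIP-seq library and no input control was used here. The authors deposited annotated peak lists; per the submitters' processing notes their tools were bcl2fastq 1.8.3, BWA, STAR and HOMER, and the notes name both mm9 and mm10. How peaks were called is not given in the sources used here. Peak score, peak positions and distances to the nearest start site are used as the authors deposited them, and widths were computed as end minus start. The distances matched RefSeq starts of GRCm38.p6 within 1000 bp for 99.3% of 73888 peaks, so coordinates are given on that build. Low scores (10 or less) were whole multiples of 0.311 in WT and 0.337 in IKDN, which, if scores are tags scaled to a fixed total, would make the WT library slightly deeper. The depth is not given in the sources used here.

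Peaks off chromosomes 1 to 19 and X (55 WT, 64 IKDN) were left out. Overlap, coverage and annotation shares were computed with Python 3.11.15, pandas 2.3.3, numpy 2.4.6 and scipy 1.17.1, and checked on simulated peaks with known answers. Named genes were those of the mapped factors, the 3 largest gains and losses called in each list, the 5 largest gains and losses over all genes, the 10 top-scored and 5 widest genotype-only peaks, the 5 top-scored shared peaks and a set of pre-B genes; some genes that this rule names are not reported here. The members and gene lists were chosen with earlier results of these data known. Sequences at peak centres were not analysed here, since no genome was used, and RefSeq promoter windows took their place. Alternatives varied the overlap rule, the score cut, the promoter definition and the way a gene's coverage is counted. Some WT and IKDN factor lists cover part of the chromosomes, and shares for these use the chromosomes covered.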

Additional observations from a re-analysis of the deposited data

How the results depend on the processing

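No paired analysis was possible because each genotype has 1 library. Most shares moved with the overlap rule, while the order of the classes by promoter share (shared, IKDN-only, WT-only) held under every alternative run. Requiring 50% of both peaks to overlap gave WT-only and IKDN-only shares of 36.9 and 37.5%, promoter shares of 2.90% (WT-only) and 14.3% (shared), WT H3K4me1 at 12.5% of distal IKDN-only and IKDN H3K4me1 at 19.4% of distal WT-only peaks, and H3K27me3 of the other genotype at 3.83% of IKDN-only (18.9% with 1 bp) and 1.02% of WT-only peaks (8.44%). Allowing 1000 bp gave 23.2, 23.3, 23.2, 34.1, 23.9 and 12.45%, for the same shares without the promoters.

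The top-scored 50% of each list gave 16.4 and 17.1%, promoter shares of 3.49, 8.62 and 19.02% (WT-only, IKDN-only, shared), H3K4me1 at 58.1 and 74.7%, and H3K27me3 at 30.9 and 14.2%. H3K4me1 of the other genotype was thus present at most of these stronger distal sites; an H3K4me2 peak outside the top 50% in the other list counts as absent there. Set against the whole other list instead, an alternative chosen after seeing the data, the shares were 3.91 and 6.11%, the IKDN-only to WT-only ratio 1.58, the promoter shares 3.30, 6.36 and 17.0%, IKDN H3K4me1 36.6% and H3K27me3 25.02 and 14.25%. With equal peak numbers the ratio was 0.986, so the lead of IKDN-only peaks reversed. Promoters taken within 1000 bp of a start site gave 2.97, 9.14 and 34.1%. A further pair was chosen after seeing the data: the central 500 bp of each peak gave H3K4me1 20.2 and 31.4% and H3K27me3 17.5 and 7.47%, and leaving out the V regions gave a WT-only share of 23.9%.

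Genes called higher numbered 1384 by promoter peaks only. Genes called lower numbered 1290 at 2 times the coverage, 1397 over the gene body and 10 kb flanks, 3397 by number of peaks and 917 by promoter peaks only. Genes higher minus lower are given next, with the value by coverage first. B lineage was -8, with -5 at 2 times, -4 over the body, -3 for distal peaks and, reversed, 2 by number of peaks. Pre-B was -4, with -2 at 2 times, -1 by number and -9 in the top 50%. Integrin was 15, with 8 at 2 times, 8 by number and 3 at promoters. Hippo was 10, with 6 over the body. Growth factor was 5, with 2 at 2 times and, reversed, -2 at promoters. Cell cycle was -4, with -2 at 2 times, -1 by number and, reversed, 1 at promoters. Stromal was 6, with 3 over the body and 3 in the top 50%. T cell was -5, with -2 by number, -1 at promoters and -2 in the top 50%. The junction list reversed from 1 to -1 over the body and at promoters, the H3K4 enzymes from -1 to 3 by number, and housekeeping from 1 to -2 by number and -4 for distal peaks. Leaving out X changed none of these calls beyond the margins used. The cause of these differences was not tested. Weak peaks near the threshold make up most of the genotype-only classes, and with 1 library a side genotype and library cannot be told apart.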
